A study of Homo sapiens with 9 samples.

Results

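The genes described here are the histone genes of A375 melanoma cells: every gene whose symbol begins with HIST1H, HIST2H, HIST3H, HIST4H, H1F, H2AF, H2BF or H3F, with pseudogenes left out. The rule found 80 of the 18430 genes in the expression table. They fall into 61 replication-dependent genes (4 H1, 16 H2A, 16 H2B, 13 H3 and 12 H4), 18 variant genes (4 H1, 9 H2A, 2 H2B and 3 H3) and HIST2H3PS2. The older name of HIST2H3PS2 marks a pseudogene, but RefSeq lists it as the protein-coding gene H3-7, so it was kept and is given apart from both families. All 80 matched the RefSeq gene table, 46 of the replication-dependent genes lie on chromosome 6 and 14 on chromosome 1.

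A375 is a human melanoma line, and every sample carries the BRAFV600E genotype and was grown in DMEM with 10% fetal bovine serum. The 9 RNA-seq libraries form 3 groups of 3. Vemurafenib cells received 10 µM of this BRAF inhibitor for 3 days, and cisplatin cells received 2 µM of this DNA-crosslinking platinum drug for 1 day. Both were then returned to drug-free culture and taken for RNA on day 7. Control cells were kept in normal culture, and no collection day is recorded for them. A difference in time in culture between drug and control libraries thus cannot be told apart from the drug. Dose, exposure and time without drug differ between the drugs and cannot be told apart from the drug itself. Whether the 3 replicates of a group were separate cultures is not recorded, and p-values here reflect only library-to-library spread, which may be technical. Both drug groups were compared with the same 3 control libraries.

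DNA wraps around an octamer of the core histones H2A, H2B, H3 and H4, and a linker histone H1 binds where the DNA enters and leaves. Replication-dependent genes are short, intronless and clustered, and they supply most new histones in S phase; their usual mRNA ends in a conserved stem-loop bound by SLBP in place of a poly(A) tail. Some of these genes also give polyadenylated transcripts, known from cells that have left the cycle. Variant genes mostly lie outside the large clusters, and many contain introns. They give polyadenylated mRNA and are expressed outside S phase too.

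The stem-loop of 8 genes that have one in GENCODE v29 is shown because it marks the replication-dependent family. They were picked from each core histone class and from the variants, and other abundant genes such as HIST3H2A and HIST2H2BF have one too. The 16 capitals are the stem and loop, read 5′ to 3′ on the mRNA strand, with 5 bases on each side. The coordinates are hg38 and cover the capitals.

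HIST2H2AA3: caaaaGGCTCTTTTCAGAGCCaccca
HIST1H2AC: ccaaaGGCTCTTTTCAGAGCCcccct
HIST2H2BE: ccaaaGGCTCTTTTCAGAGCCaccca
HIST1H2BD: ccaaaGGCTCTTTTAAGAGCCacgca
HIST1H3H: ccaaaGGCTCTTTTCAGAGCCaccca
HIST2H4A: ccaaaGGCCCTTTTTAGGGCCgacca
HIST1H4H: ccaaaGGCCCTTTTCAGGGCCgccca
H2AFX: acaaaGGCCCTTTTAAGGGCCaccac

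They lie at chr1:149842223-149842238 (HIST2H2AA3, minus strand), chr6:26124669-26124684 (HIST1H2AC, plus), chr1:149886188-149886203 (HIST2H2BE, minus), chr6:26158587-26158602 (HIST1H2BD, plus), chr6:27810516-27810531 (HIST1H3H, plus), chr1:149833032-149833047 (HIST2H4A, plus), chr6:26285131-26285146 (HIST1H4H, minus) and chr11:119094898-119094913 (H2AFX, minus), in each case downstream of the coding sequence. The 16-base histone stem-loop pattern, which allows C or T in the first arm of the stem and A or G in the second, was searched on the mRNA strand. It occurred in an annotated coding transcript of 32 of the 61 replication-dependent genes and of 1 of the 18 variant genes, H2AFX. Among the 19589 protein-coding genes other than those described here, 27 held it. Any histone gene absent from the expression table counts among these. Many annotated histone transcripts end before the stem-loop, so its absence from an annotation says nothing about the mRNA. Some annotations run on: 16 of the 28 replication-dependent genes with enough counts to test have a transcript that runs at least 100 bases past the stem-loop. For HIST2H2BE it runs 1729 bases on, for HIST1H2AC 1114 and for H2AFX 1044. The table gives 1 value per gene, so transcripts that end at the stem-loop and longer polyadenylated ones cannot be told apart. The labels name total RNA and random-hexamer priming and name no selection step.

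Libraries held 14481020 to 16038475 estimated counts, of which the 80 histone genes took 0.169% to 0.207%. As a check of the cell type, SOX10 stood at 586 to 869 TPM (a level per transcript length and library size) and S100A1 at 568 to 3113 TPM, whereas the pigment genes MLANA and TYR stayed below 1 TPM in every library. Summed over the 7 melanocyte and melanoma markers, the level was 1982 to 2100 TPM in vemurafenib, 3628 to 4010 in cisplatin and 1393 to 1587 in control libraries. The blood markers summed to 0.07 to 0.49 TPM in vemurafenib, 0.14 to 0.37 in cisplatin and 0 in control libraries (3 of 4 listed genes in the table). The 6 fibroblast markers summed to 17.2 to 28.3, 12.1 to 26.3 and 8.77 to 11.9 TPM in the same order, with COL1A2 below 1 TPM throughout. Keratinocyte markers (3 of 4 in the table, KRT5 below 1 TPM throughout) summed to 0.37 to 1.05, 0.70 to 1.12 and 4.53 to 7.58 TPM, and the 3 endothelial markers to 0.14 to 0.17, 0.80 to 1.64 and 1.16 to 2.30 TPM, with CDH5 below 1 TPM throughout. The part of these shifts in the histone results was not tested. In bulk RNA, fewer cells with a transcript and less of it per cell cannot be told apart.

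One library stands apart. Vemurafenib replicate 1 deviated from its group with transcript length (Spearman's rho across genes −0.60, against 0.53 and 0.44 in the other vemurafenib libraries and −0.16 to 0.17 elsewhere; genes are not independent replicates), so short transcripts ran high in it. Most replication-dependent histone mRNAs are short, but their classes did not all run high in it. Of the vemurafenib libraries it had the highest summed CPM for replication-dependent H1, H2A and H2B. For H3 it had the lowest (3.64, against 5.69 and 4.97), as for H4 (8.97, against 11.9 and 10.0). The part of transcript length in these differences was not tested. Vemurafenib calls named below that change without this library are given both ways.

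The low-count filter of edgeR left 40 of the 80 genes. The 33 replication-dependent genes below it had 1 to 55 counts over all 9 libraries and at most 15 in any. Of the 28 above it, 26 had at least 10 counts in every cisplatin library, but 14 did so in every vemurafenib library and 12 in every control library. Part of the family was thus admitted through cisplatin, where it is high, and counts over the 28 describe these genes and not the whole family. Of the variants, 11 of 18 passed, and 10 of them had at least 10 counts in every library of each group. The 7 others are H1FNT, H1FOO, H2AFB1, H2AFB2, H2AFB3, H2BFM and H2BFWT, known mainly from germ cells.

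Replication-dependent histone transcripts were several times more abundant after cisplatin than in controls, and about double after vemurafenib. Summed over all 61 genes, the level per length was 663, 750 and 723 TPM in vemurafenib libraries, 1596, 1909 and 2047 TPM in cisplatin libraries and 328, 338 and 305 TPM in control libraries. No group overlapped another. Sharing of reads between near-identical copies within the family cancels in sums of counts, and in TPM sums only between copies of the same length. HIST1H2AD and HIST1H3D overlap on chromosome 6 and both had fractional counts in 7 libraries. The H2A and H3 sums given below may thus also depend on how reads were divided between them. The summed estimated counts are not whole, however, with fractional counts for HIST2H2BE and HIST2H2BF among others, so the sums still depend on how reads were divided with features outside the 61 genes. On counts scaled to library size with TMM factors (CPM), the scale of the tests, the sums averaged 209 ± 13.1 in vemurafenib, 552 ± 41.3 in cisplatin and 96.8 ± 12.1 in control libraries (SD, n = 3 each), ratios to control of 2.16 and 5.70. The vemurafenib ratio on the log2 scale was 1.11, and between 1.01 and 1.17 when any 1 library was left out; that of cisplatin was 2.51, and between 2.41 and 2.57.

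**Figure D1:**
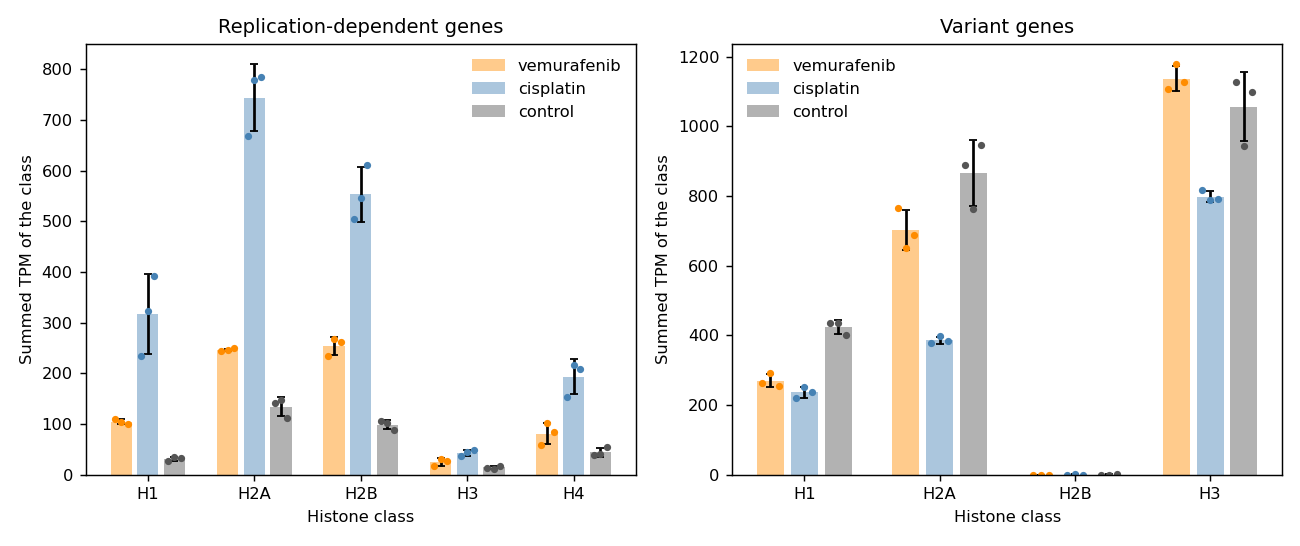
Summed TPM of each histone class for replication-dependent genes (left) and variant genes (right); bars are group means with SD, points are the 3 libraries. In each replication-dependent class the cisplatin bar is the tallest, up to 743 TPM for H2A, while among variants of H1, H2A and H3 it is the shortest.

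Every class took part, to unequal extents. Replication-dependent H1 summed to 109, 105 and 100 TPM in vemurafenib, 235, 324 and 392 TPM in cisplatin and 27.6, 34.8 and 32.7 TPM in control libraries. H2A summed to 245, 246 and 249 TPM in vemurafenib, 667, 779 and 784 in cisplatin and 142, 148 and 113 in control libraries. H2B reached 234, 267 and 262 TPM in vemurafenib, 504, 545 and 612 in cisplatin and 107, 102 and 88.8 in control libraries. In these 3 classes no group overlapped another. H4 and H3 were scarcer: H4 averaged 81.2 ± 21.4 TPM in vemurafenib, 194 ± 34.3 in cisplatin and 44.6 ± 8.58 in control libraries, and H3 averaged 25.4 ± 7.66, 43.1 ± 6.52 and 14.4 ± 2.28 TPM in the same order (SD, n = 3). In H3 the lowest vemurafenib library, 16.7 TPM, lay within the control range of 12.4 to 16.9 TPM.

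A handful of genes carried the signal. The 8 with most counts, HIST2H2BE, HIST1H2BK, HIST1H1C, HIST2H2AA3, HIST2H2AA4, HIST1H2BD, HIST1H2AC and HIST3H2A, held 87.8% ± 2.36 of all replication-dependent counts in vemurafenib, 89.6% ± 1.01 in cisplatin and 83.7% ± 3.02 in control libraries. All but HIST3H2A rose after both drugs.

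**Figure D2:**
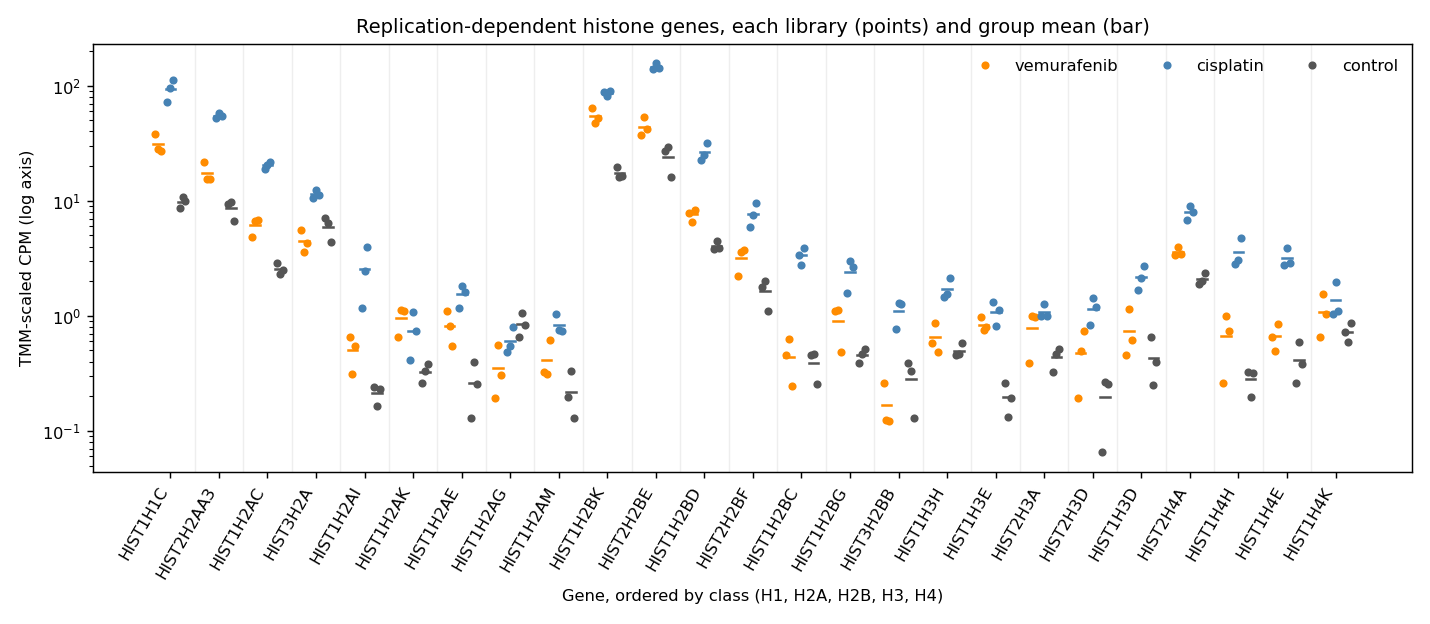
TMM-scaled CPM (log axis) of the tested replication-dependent genes in every library, with group means as bars; HIST2H2AA4, HIST2H3C and HIST2H4B, whose values equal those of their copies, are left out. Cisplatin points lie above control points in nearly every gene, and vemurafenib points between them in most of the abundant genes, but not in HIST3H2A.

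HIST1H1C encodes the linker histone H1.2 (H1-2, chr6:26055740-26056470) and was the one linker gene of the clusters with enough counts. It stood at 38.2, 28.1 and 27.2 CPM in vemurafenib, 72.5, 96.3 and 112 CPM in cisplatin and 8.67, 10.9 and 9.88 CPM in control libraries. All 3 groups were separate. The log2 change was 1.66 ± 0.19 (SE) for vemurafenib against control (adjusted p = 3.1e-05) and 3.25 ± 0.19 for cisplatin against control (adjusted p = 1.7e-07), by the quasi-likelihood test of edgeR, with Benjamini-Hochberg correction over all 13989 genes tested, as for every adjusted p below. The other linker genes of the clusters were below the filter, the highest of them HIST1H1D with 55 counts in all.

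Among H2A genes, HIST2H2AA3 and HIST2H2AA4 are near-identical copies on chromosome 1 with the same values in the table, so how reads were shared between them is uncertain. Each stood at 21.7, 15.4 and 15.6 CPM in vemurafenib, 52.2, 57.5 and 54.1 CPM in cisplatin and 9.29, 9.79 and 6.71 CPM in control libraries. The log2 change of HIST2H2AA3 was 1.03 ± 0.18 after vemurafenib (edgeR adjusted p = 0.00057) and 2.67 ± 0.18 after cisplatin (adjusted p = 3.5e-07). HIST1H2AC, on chromosome 6 (chr6:26124172-26124690), is among the genes whose annotated transcript runs far past the stem-loop shown above. HIST1H2AC stood at 4.88, 6.73 and 6.85 CPM in vemurafenib, 18.9, 20.4 and 21.9 CPM in cisplatin and 2.87, 2.32 and 2.50 CPM in control libraries, log2 changes of 1.26 ± 0.19 and 2.99 ± 0.18 (edgeR adjusted p = 0.00021 and 1.8e-07). HIST3H2A, in the small cluster near the long-arm end of chromosome 1, behaved differently: 5.59, 3.55 and 4.28 CPM in vemurafenib overlapped 7.04, 6.37 and 4.36 CPM in control libraries, whereas the cisplatin libraries held 10.7, 12.5 and 11.2 CPM. Its change of 0.95 ± 0.21 after cisplatin passed the test and that of −0.41 ± 0.22 after vemurafenib did not (edgeR adjusted p = 0.0031 and 0.16). Without vemurafenib replicate 1 the vemurafenib change of HIST3H2A was −0.59 and passed (adjusted p = 0.038).

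Among H2B genes, HIST1H2BK and HIST2H2BE led. HIST1H2BK stood at 64.6, 47.5 and 52.5 CPM in vemurafenib, 88.8, 81.2 and 90.5 CPM in cisplatin and 19.8, 16.1 and 16.6 CPM in control libraries. Its levels after the 2 drugs were the nearest to each other of the abundant genes, at log2 changes of 1.65 ± 0.14 and 2.31 ± 0.14 against control (edgeR adjusted p = 2.8e-06 and 1.8e-07). HIST2H2BE, annotated with a transcript of over a kilobase beyond its stem-loop, stood at 37.2, 53.0 and 41.9 CPM in vemurafenib, 140, 156 and 142 CPM in cisplatin and 27.3, 29.3 and 16.0 CPM in control libraries. The vemurafenib libraries all lay above the controls, by 0.86 ± 0.20 on the log2 scale, and the cisplatin libraries lay well above both, by 2.60 ± 0.21 against control (edgeR adjusted p = 0.0045 and 1.9e-06). HIST1H2BD rose by 0.91 ± 0.18 and 2.71 ± 0.17 on the same scale (edgeR adjusted p = 0.0016 and 3.0e-07).

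The promoters of HIST1H1C, HIST1H2BK and HIST2H2BE, which rose together, are shown beside that of H2AFZ, a variant gene that fell after cisplatin. Each is the 150 bases before the RefSeq start on GRCh38.p14, read 5′ to 3′ on the gene's strand (minus for all 4). Capitals mark the CCAAT box, the TATA box TATAAA, the octamer ATTTGCAT or the H1 box AAACACA on either strand, and no marked motif overlaps another.

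HIST1H1C: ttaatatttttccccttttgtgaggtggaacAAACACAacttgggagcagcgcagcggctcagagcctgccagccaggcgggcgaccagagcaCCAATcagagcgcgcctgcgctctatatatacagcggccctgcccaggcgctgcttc
HIST1H2BK: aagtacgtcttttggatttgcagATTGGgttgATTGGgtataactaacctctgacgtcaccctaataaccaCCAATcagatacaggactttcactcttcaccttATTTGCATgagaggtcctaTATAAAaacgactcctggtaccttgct
HIST2H2BE: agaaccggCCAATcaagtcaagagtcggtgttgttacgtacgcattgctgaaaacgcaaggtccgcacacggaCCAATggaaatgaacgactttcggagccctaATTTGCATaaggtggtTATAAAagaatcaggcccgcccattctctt
H2AFZ: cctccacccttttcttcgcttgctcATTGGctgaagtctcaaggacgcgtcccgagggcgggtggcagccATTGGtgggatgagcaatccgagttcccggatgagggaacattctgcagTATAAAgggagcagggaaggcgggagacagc

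They lie at chr6:26056471-26056620, chr6:27146859-27147008, chr1:149886683-149886832 and chr4:99950276-99950425. Windows were found for 75 of the 80 genes (84 windows). Within 250 bases before the start, on either strand, CCAAT occurred in 85.5% of the 62 replication-dependent windows, in 76.2% of the 21 variant windows and in 32.0% of all 35116 RefSeq windows. By class, CCAAT occurred in every replication-dependent H1, H2A, H2B and H3 window, but in only 2 of 11 H4 windows (18.2%). The octamer, which POU2F1 (Oct-1) is known to bind in H2B promoters, occurred in 13 of 18 replication-dependent H2B windows and 10 of 15 H2A windows, in 1 of 14 H3 windows and in 0 of 11 H4 windows, against 1.63% of all windows. The H1 box occurred in all 4 replication-dependent H1 windows and in 4.82% of all windows. TATAAA occurred in 66.1% of replication-dependent, 19.0% of variant and 10.7% of all windows. H2A and H2B genes of the clusters often share 1 divergent promoter region, so these windows are not independent, and a match is a description of the sequence and not a binding site.

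Among replication-dependent H3 genes, levels were near the limit of the libraries. None of the 6 tested had at least 10 counts in every control library. They may owe their place among the tested genes to the drug groups, where they are higher, so their rises are not independent of the filter. HIST1H3E was the clearest, with 0.98, 0.75 and 0.80 CPM in vemurafenib, 1.32, 0.81 and 1.13 CPM in cisplatin and 0.26, 0.13 and 0.19 CPM in control libraries. Both drug groups were separate from the controls, by 2.05 ± 0.42 and 2.43 ± 0.40 on the log2 scale (edgeR adjusted p = 0.0019 and 5.0e-04), and overlapped each other. The 5 other tested H3 genes of the clusters, among them HIST1H3H and the copies HIST2H3A and HIST2H3C, again with identical values, rose after cisplatin, with log2 changes from 1.27 for HIST2H3A to 2.51 for HIST2H3D, and did not pass the test after vemurafenib. Without vemurafenib replicate 1 HIST2H3A and HIST2H3C passed there too, each at 1.17 (adjusted p = 0.018), as did HIST2H3D at 1.62 (adjusted p = 0.030). For HIST2H3C the cisplatin call (edgeR adjusted p = 0.023) was lost when cisplatin replicate 2, control replicate 1 or control replicate 2 was left out (adjusted p = 0.079, 0.083 and 0.055). HIST2H3PS2 stood higher than these, at 21.6, 33.8 and 35.0 CPM in vemurafenib, 33.6, 39.2 and 42.7 CPM in cisplatin and 18.2, 18.9 and 13.8 CPM in control libraries, and rose by 0.83 ± 0.19 and 1.18 ± 0.19 (edgeR adjusted p = 0.0042 and 4.0e-04).

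Among H4 genes, which all encode the same protein, HIST2H4A and its copy HIST2H4B, identical in the table, each stood at 3.38, 3.99 and 3.43 CPM in vemurafenib, 6.85, 9.09 and 7.96 CPM in cisplatin and 1.89, 1.99 and 2.37 CPM in control libraries. The groups did not overlap, and HIST2H4A rose by 0.78 ± 0.20 after vemurafenib and by 1.93 ± 0.20 after cisplatin (edgeR adjusted p = 0.0086 and 1.3e-05). With a correction for transcript length the vemurafenib call of HIST2H4A was lost, at 0.67 (adjusted p = 0.055). HIST1H4H had the steepest cisplatin rise of the family, with counts of 41, 45 and 72 in cisplatin against 5, 3 and 5 in control libraries, a log2 change of 3.62 ± 0.45 (edgeR adjusted p = 5.6e-05). In vemurafenib libraries HIST1H4H had 4, 16 and 12 counts, which overlapped the controls. Without vemurafenib replicate 1, which held the 4, its log2 change was 1.59 in place of 1.22 and passed the test (adjusted p = 0.015 in place of 0.091).

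Counted over the tested replication-dependent genes, 13 of 28 rose and 1 fell after vemurafenib, where 22.0% of all tested genes rose and 22.9% fell. After cisplatin 25 of 28 rose, where 22.7% of all tested genes rose and 23.5% fell. By edgeR 0 fell after cisplatin, also at an unadjusted p under 0.05 and with DESeq2 or limma. The median log2 change was 0.91 for vemurafenib and 2.35 for cisplatin, against 0.01 and 0.00 over all genes tested. Over all 40 tested histone genes 14 rose and 4 fell after vemurafenib. With a correction for transcript length 11 rose and 8 fell, and without vemurafenib replicate 1 the counts over these 40 genes were 18 and 9. In that analysis HIST1H1D also passed the low-count filter and the test, which made 19. With each pair of copies counted once, 11 of 25 rose and 1 fell after vemurafenib, and 22 of 25 rose after cisplatin. Of the 28, 12 had at least 10 counts in every control library and owe their place to no drug group. Among these 12, 10 rose and 1 fell after vemurafenib, and 11 rose after cisplatin. The 12 include the identical copies HIST2H2AA3 and HIST2H2AA4, and HIST2H4A and HIST2H4B, each counted separately.

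The exceptions are few and are named here after their values were seen. HIST1H2AG, an H2A gene, fell after vemurafenib (3, 9 and 5 counts, against 10, 16 and 13 in control libraries), by 1.24 ± 0.43 on the log2 scale (edgeR adjusted p = 0.035), and did not pass in 8 of 20 alternative analyses, among them without vemurafenib replicate 1 (adjusted p = 0.088), vemurafenib replicate 3, cisplatin replicate 2, control replicate 2 or control replicate 3. After cisplatin HIST1H2AG, HIST1H2AK and HIST1H4K did not pass. HIST1H2AK rose after vemurafenib, by 1.54 ± 0.44 (edgeR adjusted p = 0.014), and stood at 1.17 ± 0.46 after cisplatin (adjusted p = 0.056). The cisplatin change of HIST1H2AK passed in 6 of 20 alternative analyses. HIST1H2AE, another H2A gene, rose after both drugs, by 1.62 ± 0.47 and 2.52 ± 0.43 (edgeR adjusted p = 0.015 and 5.9e-04). Without control replicate 1 the vemurafenib calls of HIST1H2AK and HIST1H2AE were lost (adjusted p = 0.054 and 0.060).

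**Figure D3:**
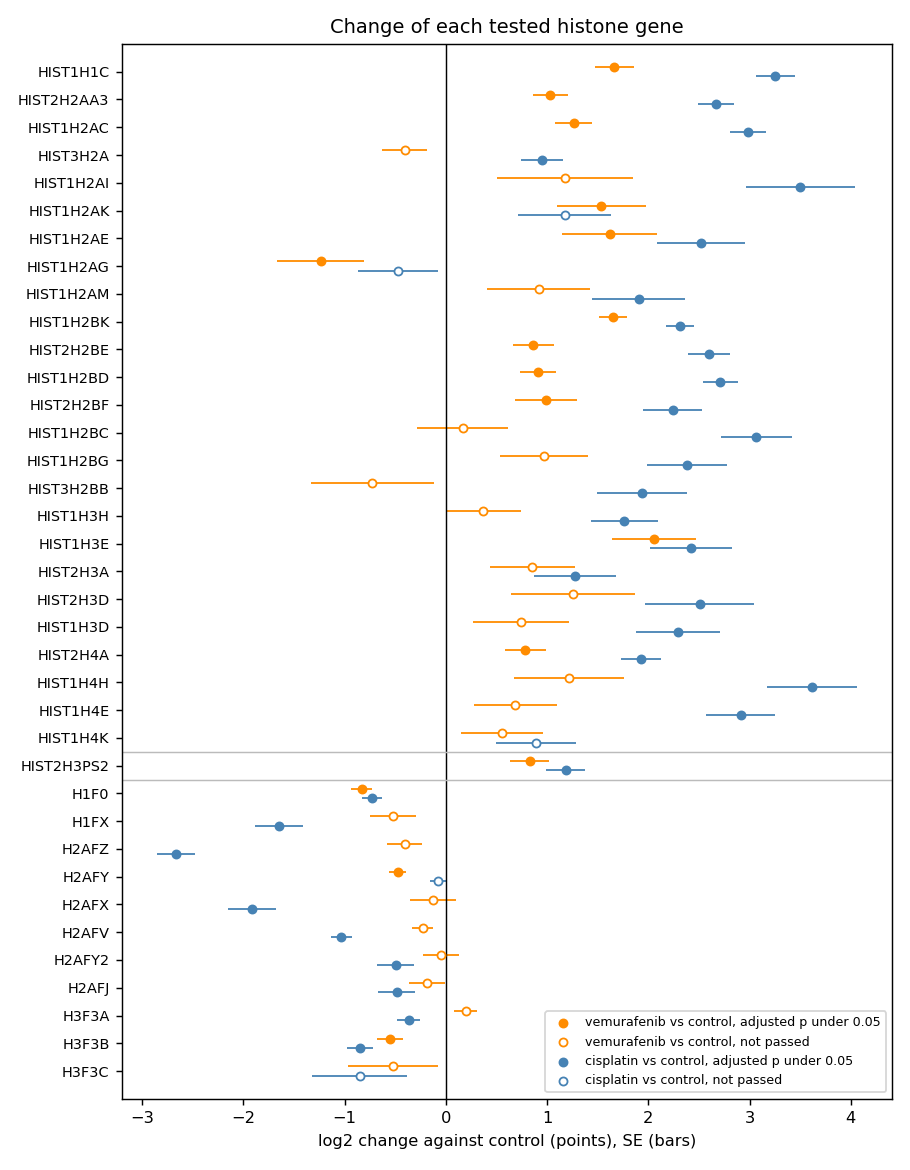
Log2 change (points) with SE (bars) of each tested histone gene after vemurafenib and after cisplatin, each against control; filled points have an adjusted p under 0.05. Replication-dependent genes are above, HIST2H3PS2 is set off by grey lines and variant genes are below; cisplatin changes reach 3.62 (HIST1H4H) above and −2.67 (H2AFZ) below control.

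The drugs were then compared directly. Against cisplatin, vemurafenib libraries held less of 20 of the 28 tested replication-dependent genes, where 20.8% of all tested genes were lower and 23.0% higher. By edgeR 0 were higher, also at an unadjusted p under 0.05 and with DESeq2 or limma. The median log2 difference was −1.37. HIST1H2BC differed most, at 0.46, 0.62 and 0.24 CPM in vemurafenib and 3.39, 2.78 and 3.86 CPM in cisplatin libraries, a log2 difference of −2.90 ± 0.34 (edgeR adjusted p = 3.3e-05); its vemurafenib libraries overlapped the control values of 0.46, 0.46 and 0.26 CPM. HIST3H2BB, HIST1H4H, HIST1H2AI and HIST1H4E followed, at −2.67, −2.40, −2.32 and −2.23. HIST1H1C differed by −1.59 ± 0.18, HIST2H2BE by −1.73 ± 0.20 and HIST1H2BK by −0.66 ± 0.13, and all 3 passed (edgeR adjusted p = 2.5e-05, 3.1e-05 and 0.0016). Of 11 of the 12 genes well counted in controls the same held, HIST1H2AG being the other.

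Variant histone genes moved the other way after cisplatin. Of the 11 tested, 9 fell after cisplatin and 3 after vemurafenib, with median log2 changes of −0.85 and −0.41. The cisplatin count was 7 with limma on either TPM scale and 6 to 9 with a library left out. Over all tested genes 23.5% fell after cisplatin and 22.9% after vemurafenib, so the vemurafenib count is near that of genes at large. By edgeR 0 rose after either drug, and 0 at an unadjusted p under 0.05; DESeq2 also gave 0, and limma on TPM gave 1 riser after vemurafenib, H3F3A. Summed over all 18 genes, the level was 2138, 2122 and 2070 TPM in vemurafenib, 1416, 1439 and 1414 TPM in cisplatin and 2453, 2142 and 2447 TPM in control libraries. The cisplatin libraries lay below all others. Read per length, the vemurafenib ratio to control was 0.899, and on CPM 0.787.

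**Figure D4:**
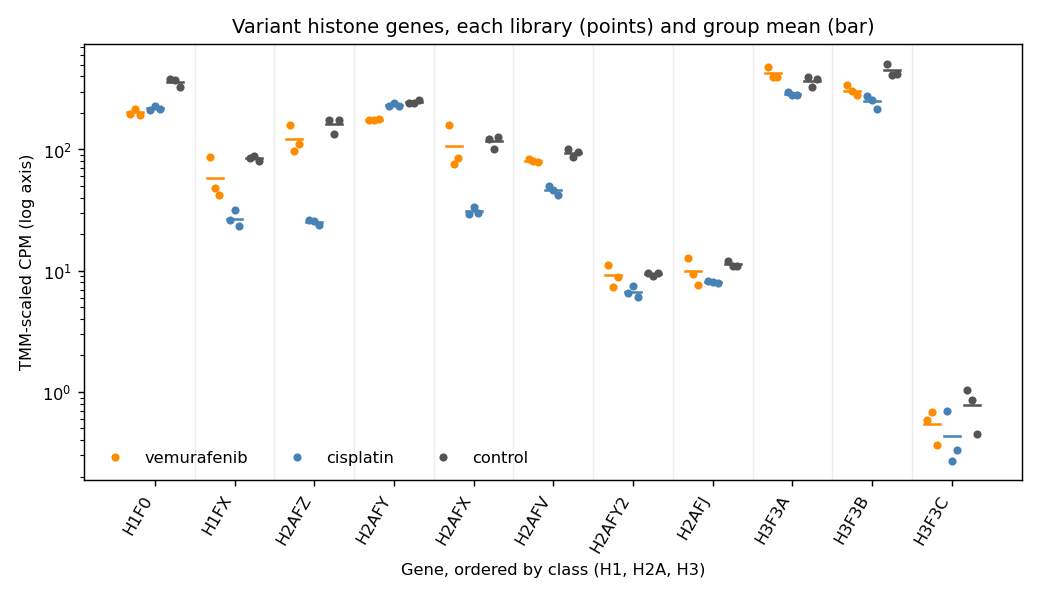
TMM-scaled CPM (log axis) of the 11 tested variant genes in every library, with group means as bars. Cisplatin points are the lowest for H2AFZ, H2AFX, H1FX and H2AFV, and vemurafenib replicate 1 is high for H2AFX and H1FX.

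H2AFZ and H2AFV encode the H2A.Z proteins, variants placed at promoters. H2AFZ stood at 158, 96.8 and 110 CPM in vemurafenib, 26.4, 25.8 and 24.0 CPM in cisplatin and 176, 134 and 174 CPM in control libraries. After cisplatin it fell by 2.67 ± 0.18 on the log2 scale (edgeR adjusted p = 5.4e-07), the steepest fall among the histone genes. Its vemurafenib change of −0.41 ± 0.17 did not pass (adjusted p = 0.073), but passed with the replicate number as a block (−0.42, adjusted p = 0.026), without vemurafenib replicate 1 (−0.64, adjusted p = 6.5e-04) and without control replicate 2 (−0.53, adjusted p = 0.045). H2AFV fell by 1.03 ± 0.11 after cisplatin (edgeR adjusted p = 1.4e-05) and stood at −0.23 ± 0.10 after vemurafenib (adjusted p = 0.098; 0.035 without replicate 1).

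H2AFX encodes H2A.X, whose phosphorylated form marks DNA breaks, and it is the variant gene with the stem-loop shown above. It stood at 160, 76.3 and 84.7 CPM in vemurafenib, 29.6, 33.3 and 29.9 CPM in cisplatin and 121, 101 and 128 CPM in control libraries. Cisplatin libraries lay far below the others, at a log2 change of −1.92 ± 0.24 (edgeR adjusted p = 6.5e-05). Vemurafenib libraries spanned the controls, the 160 being replicate 1, and the change was −0.13 ± 0.23 (adjusted p = 0.69); without replicate 1 it was −0.53 (adjusted p = 0.0011). H1FX, a linker variant, showed the same spread, at 86.6, 47.7 and 41.7 CPM in vemurafenib, 26.0, 31.6 and 23.2 CPM in cisplatin and 85.2, 88.3 and 79.6 CPM in control libraries. It fell by 1.65 ± 0.24 after cisplatin (edgeR adjusted p = 1.7e-04). After vemurafenib its change of −0.52 did not pass (adjusted p = 0.081), but did with the block (−0.57, adjusted p = 0.037) and without replicate 1 (−0.91, adjusted p = 5.0e-05).

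H1F0 encodes H1.0, a linker histone known from cells that have stopped dividing, and it was lower after both drugs. It stood at 198, 218 and 194 CPM in vemurafenib, 210, 228 and 216 CPM in cisplatin and 383, 373 and 328 CPM in control libraries. The falls of 0.83 ± 0.10 and 0.73 ± 0.10 on the log2 scale were alike in size (edgeR adjusted p = 5.0e-05 and 1.4e-04), and the drugs differed by −0.10 ± 0.10 (adjusted p = 0.43). H2AFY, which encodes macroH2A1, a variant known from silent chromatin, stood at 175, 176 and 178 CPM in vemurafenib, 230, 240 and 230 CPM in cisplatin and 240, 241 and 255 CPM in control libraries. It fell by 0.48 ± 0.09 after vemurafenib (edgeR adjusted p = 8.9e-04), and its cisplatin change of −0.07 ± 0.09 did not pass (adjusted p = 0.51).

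H3F3A and H3F3B encode the same protein, H3.3, the replacement H3 laid down outside S phase. H3F3B stood at 337, 302 and 280 CPM in vemurafenib, 278, 254 and 217 CPM in cisplatin and 509, 415 and 422 CPM in control libraries, and fell by 0.55 ± 0.13 and 0.85 ± 0.13 on the log2 scale (edgeR adjusted p = 0.0044 and 2.6e-04). H3F3A stood at 482, 398 and 393 CPM in vemurafenib, 298, 281 and 283 CPM in cisplatin and 396, 330 and 384 CPM in control libraries. It fell by 0.37 ± 0.11 after cisplatin (edgeR adjusted p = 0.021; up to 0.083 without cisplatin replicate 2 or 3 or control replicate 1 or 3), and its vemurafenib change of 0.20 ± 0.11 did not pass (adjusted p = 0.18), though it did with scaling by total counts alone (0.29, adjusted p = 0.039). H2AFJ and H2AFY2 fell by 0.49 and 0.50 after cisplatin (edgeR adjusted p = 0.044 and 0.039). The call for H2AFJ was lost when any 1 cisplatin or control library was left out, and that for H2AFY2 when any of these other than cisplatin replicate 2 was, with adjusted p of up to 0.12 and 0.13. Of the 20 alternative analyses, 10 lost the call for H2AFJ and 9 that for H2AFY2, in both cases with total counts and limma among them. After vemurafenib H2AFJ stood at −0.19 (edgeR adjusted p = 0.42), and without vemurafenib replicate 1 at −0.40 (adjusted p = 0.031). H3F3C, with at most 1.04 CPM, passed in no comparison.

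Against cisplatin, vemurafenib libraries held more H1FX, H2AFV, H2AFX, H2AFZ and H3F3A and less H2AFY, 5 higher and 1 lower of 11, where 23.0% of all tested genes were higher and 20.8% lower. The differences of H2AFZ and H2AFX were 2.26 ± 0.18 and 1.79 ± 0.24 on the log2 scale (edgeR adjusted p = 1.8e-06 and 9.8e-05), and without vemurafenib replicate 1 they were 2.03 and 1.38.

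Set against each other within a class, the 2 families took different shares of transcript per length. Variants made up 72.0% ± 1.50 of H1 TPM in vemurafenib, 43.4% ± 5.45 in cisplatin and 93.0% ± 0.873 in control libraries. Of H2A TPM they made up 73.9% ± 1.66, 34.3% ± 1.63 and 86.5% ± 2.82 in the same order, and of H3 TPM 97.8% ± 0.596, 94.9% ± 0.817 and 98.7% ± 0.153 (SD, n = 3 each). For H1 and H2A no library of 1 group overlapped another group; for H3 1 vemurafenib library lay within the control range. Per length, more H1 and H2A transcript thus came from replication-dependent than from variant genes in all cisplatin libraries and in no other.

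Genes that act on histone supply were counted in the same way. The list of transcription and 3′-end processing factors had 25 members, all tested: 4 rose and 7 fell after vemurafenib, and 3 rose and 11 fell after cisplatin, with medians of 0.09 and −0.29. The background was 22.0% up and 22.9% down after vemurafenib, to which these counts are near, and 22.7% up and 23.5% down after cisplatin. SLBP, the stem-loop binding protein, stood at 73.9, 58.8 and 68.5 CPM in vemurafenib, 49.9, 48.2 and 43.4 CPM in cisplatin and 95.0, 86.3 and 91.9 CPM in control libraries, without overlap. It fell by 0.44 ± 0.11 and 0.95 ± 0.11 on the log2 scale (edgeR adjusted p = 0.0068 and 4.0e-05). NPAT, the coactivator of histone clusters, did not pass after vemurafenib (−0.26, adjusted p = 0.25) or cisplatin (−0.29, adjusted p = 0.21), though it passed after cisplatin in 3 alternative analyses. CASP8AP2 (FLASH), which joins NPAT at the histone locus body, stood at −0.51 after vemurafenib (edgeR adjusted p = 0.052). It fell by 1.07 after cisplatin (edgeR adjusted p = 0.001). Its vemurafenib change passed in 8 of 20 alternative analyses. These included the replicate block (−0.54, edgeR adjusted p = 0.022) and the fit without vemurafenib replicate 1 (−0.28, adjusted p = 0.043).

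Upstream of these, E2F1 and CCNE2, which drive entry into S phase, fell by 3.49 ± 0.23 and 2.90 ± 0.26 after cisplatin (edgeR adjusted p = 3.5e-07 and 4.5e-06). After vemurafenib E2F1 fell by 0.92 ± 0.20 (adjusted p = 0.0026) and CCNE2 stood at −0.31 ± 0.22 (adjusted p = 0.27), but passed without vemurafenib replicate 3 (−0.65, adjusted p = 0.0097). CDK2, which phosphorylates NPAT, and POU2F1, the octamer-binding factor, fell by 1.41 ± 0.13 and 1.31 ± 0.15 after vemurafenib (edgeR adjusted p = 4.9e-06 and 2.9e-05). After cisplatin CDK2 fell too, at −0.98, and passed in all 20 alternative analyses as well. POU2F1 also passed after cisplatin, at −0.51. The cisplatin call of POU2F1 was lost in 5 of 20 alternative analyses, among them limma and the fits without cisplatin replicate 3 or control replicate 2. LSM10, a subunit of the U7 snRNP that cuts histone pre-mRNA, rose by 0.85 ± 0.16 and 0.56 ± 0.16, and NCBP2, a cap-binding subunit, rose by 0.53 ± 0.09 and 0.39 ± 0.09 (edgeR adjusted p = 0.0014 and 0.016 for LSM10, 5.9e-04 and 0.0044 for NCBP2). The cisplatin call of LSM10 was lost without control replicate 2 (adjusted p = 0.068). TUT7, a uridylyl transferase that marks RNAs for decay, rose by 0.77 ± 0.17 after cisplatin (edgeR adjusted p = 0.0034).

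**Figure D5:**
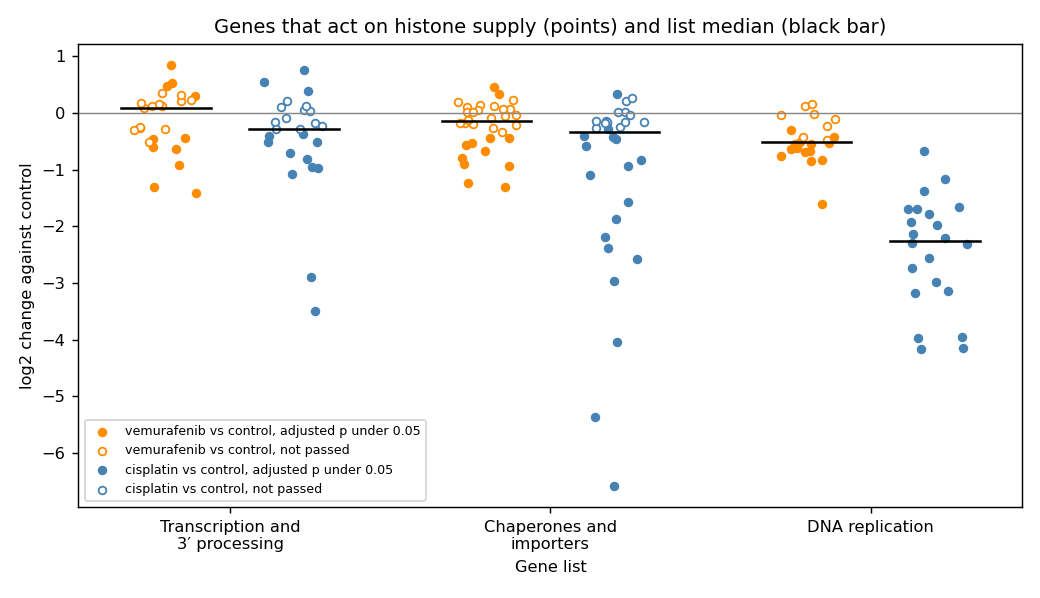
Log2 change against control of each gene (points) of 3 lists that act on or accompany histone supply, after vemurafenib (left of each pair) and cisplatin (right), with list medians as black bars; filled points have an adjusted p under 0.05. All 22 DNA replication genes are below 0 after cisplatin, with a median of −2.25.

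Of 32 histone chaperones, importers and exchange factors, 2 rose and 10 fell after vemurafenib, and 1 rose and 17 fell after cisplatin. Over all tested genes 22.0% rose and 22.9% fell after vemurafenib, and 22.7% rose and 23.5% fell after cisplatin. After vemurafenib the 31.25% of this list that fell was not far from the background, whereas the 6.25% that rose was below it. CENPA, the H3 variant of centromeres that the naming rule does not cover, stood at 13.2, 10.4 and 8.32 CPM in vemurafenib, 0.35, 0.14 and 0.13 CPM in cisplatin and 18.9, 20.3 and 22.0 CPM in control libraries, with only 5, 2 and 2 counts after cisplatin. It fell by 0.94 ± 0.18 and 6.59 ± 0.31 on the log2 scale (edgeR adjusted p = 0.0016 and 2.4e-08). HJURP, its chaperone, fell by 1.23 ± 0.14 and 5.37 ± 0.19. ASF1B and CHAF1A, which hand new H3 and H4 to replicated DNA, fell by 4.03 and 2.96 after cisplatin and by 0.53 and 0.67 after vemurafenib, the vemurafenib call for ASF1B being lost in 9 of 20 alternative analyses, among them without vemurafenib replicate 2 or 3, cisplatin replicate 2 or any control library. HIRA, which deposits H3.3 outside S phase, passed after neither drug (0.11 and −0.14; edgeR adjusted p = 0.42 and 0.31). ANP32E, which removes H2A.Z, fell by 1.31 and 1.87, and the importer IPO4 rose by 0.46 after vemurafenib.

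DNA replication genes, most active in S phase, were lower after both drugs. All 22 fell after cisplatin, and 14 fell after vemurafenib, with medians of −2.25 and −0.52, where 23.5% and 22.9% of all tested genes fell. By edgeR 0 rose after either drug, also at an unadjusted p under 0.05 and with DESeq2 or limma; without vemurafenib replicate 1, 1 rose. RRM2, a subunit of ribonucleotide reductase, stood at 144, 129 and 168 CPM in vemurafenib, 19.1, 15.4 and 9.79 CPM in cisplatin and 254, 232 and 304 CPM in control libraries, log2 changes of −0.84 ± 0.19 and −4.16 ± 0.22 (edgeR adjusted p = 0.0041 and 7.6e-08). CDT1, which licenses replication origins, fell by 1.60 ± 0.18 after vemurafenib (edgeR adjusted p = 3.2e-05). GINS2, of the replicative helicase, fell by 0.63 ± 0.20 and 4.16 ± 0.26 (adjusted p = 0.023 and 2.4e-07). The vemurafenib call of GINS2 was lost without vemurafenib replicate 2, control replicate 1 or control replicate 3 (adjusted p = 0.058, 0.078 and 0.066). CDC45, which completes that helicase, stood at −0.48 after vemurafenib (edgeR adjusted p = 0.063; −0.50 and 0.017 with the replicate block, −0.67 and 0.0071 without vemurafenib replicate 1, −0.61 and 0.039 without control replicate 2). Replication-dependent histone transcripts were highest in the group whose replication genes were lowest; whether reads came from the stem-loop form or from polyadenylated forms was not tested. Against cisplatin, vemurafenib libraries held more of all 22 replication genes, of 10 of 25 transcription and processing factors (4 lower) and of 17 of 32 chaperones (2 lower), where 23.0% of all tested genes were higher and 20.8% lower. The count of 4 lower factors is near that background.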

How the data were processed

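Total RNA of A375 cells was primed with random hexamers and made into circularised libraries, per the labels' protocols. The submitters' processing notes name HISAT2 2.0.4 and hg38. No counting tool or annotation is given in the sources used here. One table of estimated counts, TPM and FPKM for each gene and sample was deposited by the authors, with units per the file headers. Between 13.6% and 14.1% of a library's estimated counts were fractional (over 1e-06 from a whole number). They were rounded for the tests, while the printed CPM and counts come from unrounded values. Genes kept by filterByExpr (13989) were fitted with edgeR 4.0.16 in R 4.3.3 as group means over all 9 libraries (TMM, quasi-likelihood F test, two-sided, Benjamini-Hochberg threshold 0.05, 6 residual degrees of freedom). SE was derived from the log2 change and its F statistic. The deposited FPKM served for effective lengths, TPM for levels between genes and, as log2(TPM + 1) or log2(TPM + 0.1), for limma 3.58.1; DESeq2 1.42.0 was an alternative. The pipeline was tested on simulated data. No 2 libraries were duplicates.

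The histone genes and the lists of supply genes and markers were chosen with earlier results of these data known. Named genes were all tested variants, the 3 replication-dependent genes of highest TPM per class, the 5 largest rises and falls per comparison, up to 2 rises and 3 falls per supply list, and a fixed panel (NPAT, SLBP, CASP8AP2, CHAF1A, ASF1B, HIRA and CENPA). Others, such as HIST3H2A, HIST1H1D, HIST1H4K and HIST2H3D, were named after their values were seen.

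Replicate numbers recur in the labels of each group. Deviations from group means of same-numbered vemurafenib and control libraries correlated across genes at 0.18, 0.14 and 0.18. For cisplatin and control they correlated at 0.21, 0.08 and 0.13. Libraries of unlike number were not set beside them, so these values cannot show whether the numbers pair the samples. The reported fit used no pairing, and the replicate number as a block was run as an alternative.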

Additional observations from a re-analysis of the deposited data

How the results depend on the processing

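In total 20 alternatives were run, and each one that left out a library filtered low counts anew. For single named genes 0 called changes reversed in any of them. The replication-dependent counts kept within 1.5 times of those reported under every alternative for cisplatin (25 higher, 0 lower) and between the drugs (20 lower, 0 higher), and for the 13 risers after vemurafenib, which numbered 11 to 18 when a library was left out. The 1 replication-dependent gene that fell after vemurafenib became 0 with total counts, no filter, a 1 CPM filter, DESeq2 or only the 2 groups, became 2 with a length offset with or without a block, and was 0 to 1 with a library left out. Variants lower after vemurafenib, 3 as reported, became 5 with limma on either TPM scale, 6 with the length offset and 3 to 8 with a library left out (8 without vemurafenib replicate 1); variants higher became 1 with total counts or limma. All histone genes lower after vemurafenib, 4 as reported, became 8 with the length offset, where 11 were higher in place of 14, and 3 to 9 with a library left out. DNA replication genes higher after vemurafenib numbered 0 to 1 with a library left out. The 4 processing factors that rose after vemurafenib became 7 with total counts or limma, a scaling by total counts that moved the median of all genes to 0.11. After cisplatin the 1 chaperone that rose became 2 with limma, 3 with the 2 groups alone and 0 to 3 with a library left out. Between the drugs the 4 processing factors lower became 2 with limma, and the 2 chaperones lower became 0 with total counts, limma or the 2 groups alone, 1 with no filter and 0 to 3 with a library left out. The summed H2B difference between the drugs was −1.29 on CPM and −1.12 on TPM. Causes of these shifts were not tested beyond what each alternative changes.

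With replicate number as a block (4 residual degrees of freedom), variants lower after vemurafenib became 5 in place of 3, and 6 with block and length offset together, and all histone genes lower became 6, and 8 with both. Replication-dependent genes lower stayed at 1 with the block and became 2 with both. The block moved no other count reported here by over 1.5 times. Whether the numbers pair the samples is not settled for any comparison. With the block, HIST1H2AK passed after cisplatin (1.15, edgeR adjusted p = 0.034) and H3F3B passed between the drugs (0.30, adjusted p = 0.026).

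H3 genes and most cluster genes had few counts in control and vemurafenib libraries, so changes there were not detectable at this depth unless large. Identical copies share reads, and no label says that strand was marked.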
